A study of Mus musculus with 12 samples.

Results

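The genes described here are 10 components of the contractile unit of muscle: Actc1, Acta2, Myl7, Myl4, Tnnt2, Tnni1, Tnnc1, Myh6, Myh7 and Ttn. They were chosen by name, as sarcomere genes of the heart and of early muscle, and each was found in the count files by its Ensembl mouse gene identifier with the version dropped. They are 10 of the 38924 genes counted. The study measured RNA in cell populations taken from mouse embryos at stage E7.25, around gastrulation and before a beating heart has formed. Its title places it in work on Notch signalling and the commitment of mesoderm to the cardiac lineage. Sequencing was done on total RNA amplified with a kit for very small inputs.

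All 12 libraries came from 1 mouse line, Foxa2Cre:Rosa26-YFP, at E7.25, in 4 types with 3 libraries each. YFP-positive cardiac mesoderm, called ventricular in the labels, holds cells in which Cre driven by Foxa2 has switched on the YFP reporter at the Rosa26 locus. YFP-negative cardiac mesoderm, called non-ventricular, holds cardiac mesoderm in which the reporter was off. Endoderm was taken as EPCAM-positive cells and hematopoietic mesoderm as KDR-positive cells, from the same line. The reporter records past or present activity of the Foxa2 driver and not the present level of Foxa2, and the labels do not give the gate that defined cardiac mesoderm. The labels also do not say whether the 3 libraries of a type came from separate embryos or litters, so the p-values here measure the spread between these libraries, which may be technical. Libraries with the same number carry the same date in the deposited files, with no statement of what it marks, and every type has 1 library of each date.

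A sarcomere is built from thick filaments of myosin that pull on thin filaments of actin. Each myosin heavy chain, such as the products of Myh6 and Myh7, carries light chains such as those of Myl7 and Myl4. On the thin filament, troponin senses calcium and lets contraction start, and titin, the product of Ttn, spans from the edge of the sarcomere to its middle as a molecular spring. In the mouse, most of these genes are known for rising as the cardiac crescent forms, shortly after the stage sampled here.

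The promoters of 3 members are shown first because Myl7 carried the only difference past the threshold, Actc1 was high in a single library, and Tnnt2 was read in the 3 YFP-negative cardiac libraries and in no YFP-positive one. Each stretch ends just before a RefSeq start of the gene, in build GRCm38.p6, on the minus strand for Myl7 (chr11:5898783-5899032) and Actc1 (chr2:114052888-114053125) and on the plus strand for the first start of Tnnt2 (chr1:135836084-135836333). It runs 5′ to 3′, and for Actc1 the last bases before the RefSeq start were left off because the gene annotation places them in an exon. The whole Actc1 stretch lies inside the gene as annotated (chr2:114047282-114053548), which begins further upstream than this RefSeq start. Capitals mark a CArG box, the sequence that serum response factor is known to bind, and the M-CAT motif CATTCC, known for binding TEAD factors.
Myl7 promoter: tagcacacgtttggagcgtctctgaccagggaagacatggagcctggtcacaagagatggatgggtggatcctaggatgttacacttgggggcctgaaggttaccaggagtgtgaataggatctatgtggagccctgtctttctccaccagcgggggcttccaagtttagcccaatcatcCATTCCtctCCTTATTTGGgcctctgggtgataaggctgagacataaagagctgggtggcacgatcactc
Actc1 promoter: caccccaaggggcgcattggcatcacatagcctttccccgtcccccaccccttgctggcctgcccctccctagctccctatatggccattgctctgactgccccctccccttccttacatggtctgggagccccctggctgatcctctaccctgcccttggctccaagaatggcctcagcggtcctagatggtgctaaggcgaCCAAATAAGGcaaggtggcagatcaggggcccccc
Tnnt2 promoter: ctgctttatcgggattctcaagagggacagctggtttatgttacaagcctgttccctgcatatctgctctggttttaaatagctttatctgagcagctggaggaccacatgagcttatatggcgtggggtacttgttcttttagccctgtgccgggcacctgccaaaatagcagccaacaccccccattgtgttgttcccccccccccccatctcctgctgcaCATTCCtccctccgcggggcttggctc
Motifs were searched on both strands in the 250 bases before each start, with no overlap between the marked ones. A member was counted if any of its starts had a match, while the share of promoters counts single starts, so the numbers are not strictly alike. A CArG box with no mismatch was in the windows of Actc1 and Myl7, 2 of the 10 genes, and in 1.47% of the 32851 mouse promoters in the table. It began 47 bases before the RefSeq start of Actc1 and 61 bases before that of Myl7. CATTCC was in 6 of the 10 genes (Acta2, Myl7, Tnnt2, Tnnc1, Myh6 and Myh7) and in 12.6% of promoters. The Acta2 match lies in bases that the gene annotation places in an exon. A MEF2 box was in the Ttn window alone, 166 bases before its start, and in 0.508% of promoters. The GATA motif AGATAA was in the Tnnt2 window alone, and 9.99% of promoters hold it, while TATAAA was in none of the 10 and in 12.4% of promoters. Each match describes letters in these windows and says nothing of binding.

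The libraries held between 4472800 and 7888631 reads counted in genes. Because these are bulk libraries, fewer cells of a type and less RNA per cell cannot be told apart. Endoderm libraries carried all 12 endoderm markers on the list, with a summed level of 1688 to 2494 CPM (reads of a gene relative to the library's total, scaled between libraries by the TMM method), against 26.4 to 144 in cardiac mesoderm. Epcam, the gene of the endoderm sort marker, is among the 12. Markers of epiblast and neural ectoderm summed to 536 to 574 CPM in endoderm, 68.5 to 325 in cardiac mesoderm and 3.13 to 6.23 in hematopoietic mesoderm. The part of epiblast cells in the endoderm libraries was not tested. Markers of the hematopoietic and endothelial lineages summed to 1169 to 2277 CPM in hematopoietic mesoderm and 44.5 to 386 in the other 9 libraries. The third hematopoietic library stood apart within its type: it had 0 counts of the embryonic globin gene Hbb-bh1 and 1 of Gata1, where the other two had 47 and 42, and 308 and 269. Its markers of cardiac and other mesoderm summed to 2222 CPM, against 1028 and 1061 in the others of its type and 1677 to 1885 in cardiac mesoderm. Kdr, the gene of this type's sort marker, gave 965 CPM of that sum, and 665 and 700 CPM in hematopoietic libraries 1 and 2. The endoderm markers of the third hematopoietic library summed to 196 CPM, against 29.6 and 39.1. Calls and levels of members that rest on it are given with and without it.

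At this stage only Myl7 and Ttn were read in every library, and each of the other 8 sarcomere genes had over 3 counts in at most 6 of 12. A count above 3 was used as the mark of detection, since a count of 0 allows up to 3, or 0.357 to 0.723 CPM in these libraries. Intervals and floors of this kind cover counting error only. Actc1 and Tnnt2 passed it in 6 of 12 libraries, Tnni1 in 4, Myh7 in 3, Myl4 in 2, and Acta2 and Myh6 in 1 each, while Tnnc1, the calcium-binding troponin of heart and slow muscle, passed it in none. The number of members detected was 3, 4 and 3 in YFP-positive cardiac mesoderm, 5, 5 and 4 in YFP-negative cardiac mesoderm, 5, 3 and 7 in endoderm, and 2, 2 and 4 in hematopoietic mesoderm. Endoderm library 3 had the most members with over 3 counts, all but Ttn at 31 counts or fewer. Only 5 members, Actc1, Myl7, Tnnt2, Tnni1 and Ttn, passed the filter on low counts and were tested. For Acta2, Myl4, Tnnc1, Myh6 and Myh7 the counts are a description with no test.

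**Figure D1:**
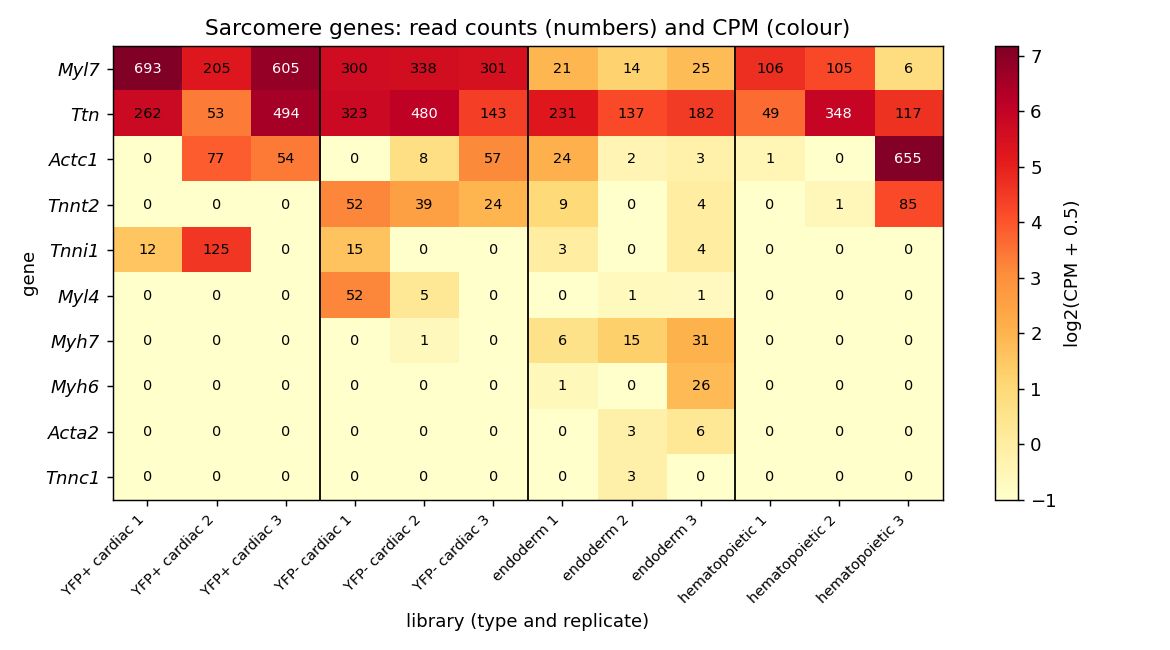
Read counts of the 10 sarcomere genes (numbers) in each of the 12 libraries (horizontal axis), with colour for log2(CPM + 0.5) and black lines between the 4 types. Myl7 and Ttn fill every column, Actc1 peaks at 655 counts in hematopoietic library 3, and Tnnt2 is at 0 in the 3 YFP-positive cardiac libraries.

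Levels between genes can be set against each other only per length. Averaged over the 12 libraries, Myl7 stood at 68.9 CPM per kilobase of exon, Actc1 at 9.05, Tnni1 at 0.665, Tnnt2 at 0.404 and Ttn at 0.336. Ttn thus had about as many reads as Myl7 (2819 and 2719 in all) but a far lower level per kilobase, since its exons span 116825 bases against 590 for Myl7. The remaining 5 members were between 0.0311 CPM per kilobase for Tnnc1 and 0.174 for Myl4. The order among these low genes rests on few reads.

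Myl7 (ENSMUSG00000020469.8, chr11:5896637-5898782 on GRCm38, minus strand) encodes the regulatory myosin light chain of the atria and is one of the early transcripts of the forming heart. It was higher in cardiac mesoderm than in the other types. Its counts were 693, 205 and 605 in YFP-positive cardiac mesoderm and 300, 338 and 301 in YFP-negative cardiac mesoderm. Endoderm had 21, 14 and 25, and hematopoietic mesoderm 106, 105 and 6. All 6 cardiac libraries, from 37.4 to 144 CPM, were above all 6 others, of which the highest was hematopoietic library 1 at 25.5 CPM. How many of all genes separate the libraries in this way was not counted.

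The Myl7 level averaged 97.9 CPM ± 54.8 (SD, n = 3) in YFP-positive cells and 47.1 ± 3.35 in YFP-negative cells of the cardiac mesoderm. It averaged 2.71 ± 0.797 in endoderm and 15.0 ± 12.4 in hematopoietic mesoderm. The mean of the cardiac fractions was above the mean of endoderm and hematopoietic mesoderm by 3.41 ± 0.63 (SE) on the log2 scale, or 10.6-fold (edgeR quasi-likelihood test, Benjamini-Hochberg adjusted p = 0.0143 over 14170 genes). Of all genes, 2.11% passed this test in either direction and 1.35% in the higher one, and of the 5 members tested Myl7 alone passed. Without the third hematopoietic library the difference was 3.14 on the log2 scale (adjusted p = 0.00222). The call held in 15 of 18 alternative fits and was lost without endoderm library 1, 2 or 3 (adjusted p = 0.053, 0.058 and 0.0558; range over the alternatives 1.83e-07 to 0.058).

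Against endoderm, Myl7 was 35.9-fold higher in YFP-positive cardiac mesoderm (log2 5.17 ± 0.97 SE, adjusted p = 0.0167 by edgeR). It was the 1 member of 5 called, where 1.54% of all genes were called in either direction and 0.953% as higher. This call was lost without YFP-positive library 1 (adjusted p = 0.0612) and without each endoderm library (0.103, 0.119 and 0.109), within a range over the alternatives of 2.01e-08 to 0.119. In YFP-negative cardiac mesoderm Myl7 was 17.3-fold above endoderm (log2 4.11 ± 0.92, adjusted p = 0.0495), again the 1 member called, against 1.31% of all genes in either direction and 0.706% as higher. That value sat at the threshold: it was lost under another scaling (0.0516), with the replicate number as a block (0.0803) and without any 1 of the 6 libraries, within a range of 2.68e-05 to 0.233. Every library of both cardiac fractions was above every endoderm library, the nearest pair being 37.4 and 3.34 CPM. The share of all genes with such a separation was not counted, so this order adds nothing to the calls.

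Against hematopoietic mesoderm, no member passed the edgeR test in either cardiac fraction. For Myl7 the difference was 2.71 ± 0.86 on the log2 scale for YFP-positive cells (adjusted p = 0.124) and 1.65 ± 0.83 for YFP-negative cells (adjusted p = 0.329). At an unadjusted p under 0.05, edgeR gave 3 members in the YFP-positive comparison, with Myl7 and Tnni1 higher in YFP-positive cells and Tnnt2 lower. After adjustment edgeR called 1.79% of all genes. DESeq2 called 2 members (Myl7 and Tnnt2), where it called 10.6% of all genes. Limma voom called 0 members, where it called 0.127% of all genes. In the YFP-negative comparison, where edgeR called 0.593% of all genes, the corresponding numbers of members were 0, 0 and 0. The adjusted p of Myl7 ranged over the alternatives from 0.0093, by DESeq2, to 0.498 in the first comparison and from 0.194 to 0.684 in the second. Without the third hematopoietic library, with its 6 counts of Myl7, the differences were 2.17 (adjusted p = 0.0935) and 1.11 (0.354).

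Myl7 was 2.46 ± 0.87 lower on the log2 scale in endoderm than in hematopoietic mesoderm, short of the threshold (adjusted p = 0.105). By edgeR 0 members were called here, against 5.65% of all genes, with 1 (Myl7) at an unadjusted p under 0.05. DESeq2 called 1 member (Myl7), against 13.4% of all genes, and limma voom 0, against 8.65%. Hematopoietic library 3, at 1.26 CPM, lay below all 3 endoderm libraries, and the other two, at 25.5 and 18.2 CPM, lay above them. Without that library Myl7 was called lower in endoderm, by 3.00 on the log2 scale (adjusted p = 0.0177, the lowest of a range that reached 0.311).

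Between the cardiac fractions, 0 members and 0.00% of all genes were called by edgeR. Myl7 differed by 1.06 ± 0.81 on the log2 scale (adjusted p = 0.87, range over the alternatives 0.626 to 0.999). YFP-positive libraries 1 and 3, at 144 and 112 CPM, were above all 3 YFP-negative libraries, while library 2, at 37.4 CPM, was below all of them (50.3, 47.4 and 43.6). The groups therefore overlapped, and the spread within YFP-positive cells exceeded the gap between the means.

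**Figure D2:**
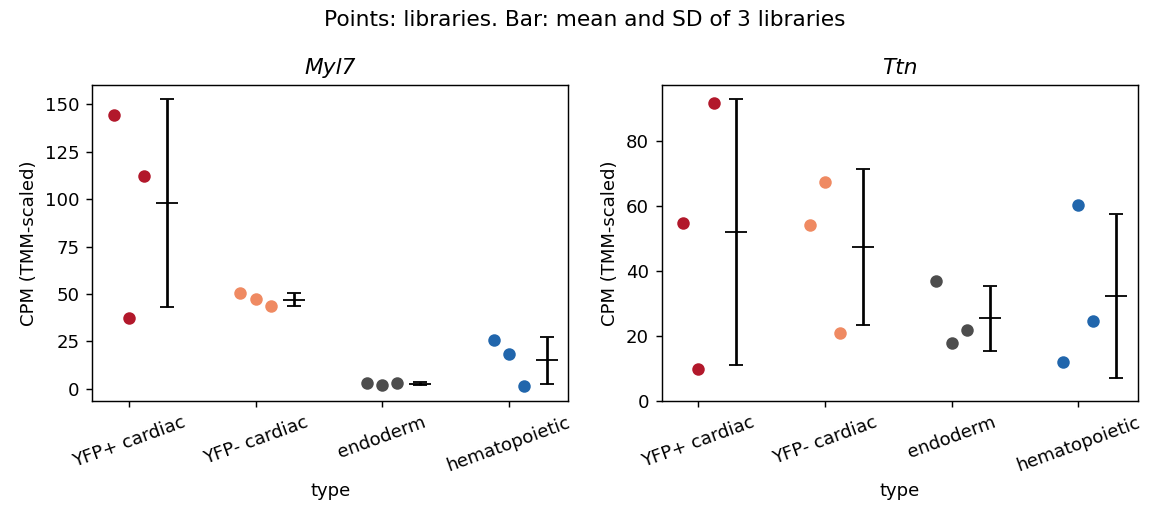
TMM-scaled CPM of Myl7 (left) and Ttn (right) in each library (points) of the 4 types, with the mean and SD of 3 libraries (bars) beside them. For Myl7 the 6 cardiac libraries lie above the other 6, whereas for Ttn the 4 types overlap.

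Counts per base of transcript reached a like maximum in every library. The gene with the most reads per base of its longest transcript had 1.94 to 2.02 in all 12 libraries, although their totals spanned 1.76-fold. Actb, the cytoplasmic actin, differed by only 1.13-fold in raw counts between its highest and lowest library. Myl7, with its transcript of 590 bases, reached 1.18 counts per base in YFP-positive library 1 and 1.03 in library 3, above 99.8% and 99.6% of the genes detected there. It stood at 0.348 in YFP-positive library 2 and at 0.509 to 0.573 in the YFP-negative libraries. Whether such a maximum lowers the Myl7 difference was not tested.

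**Figure D3:**
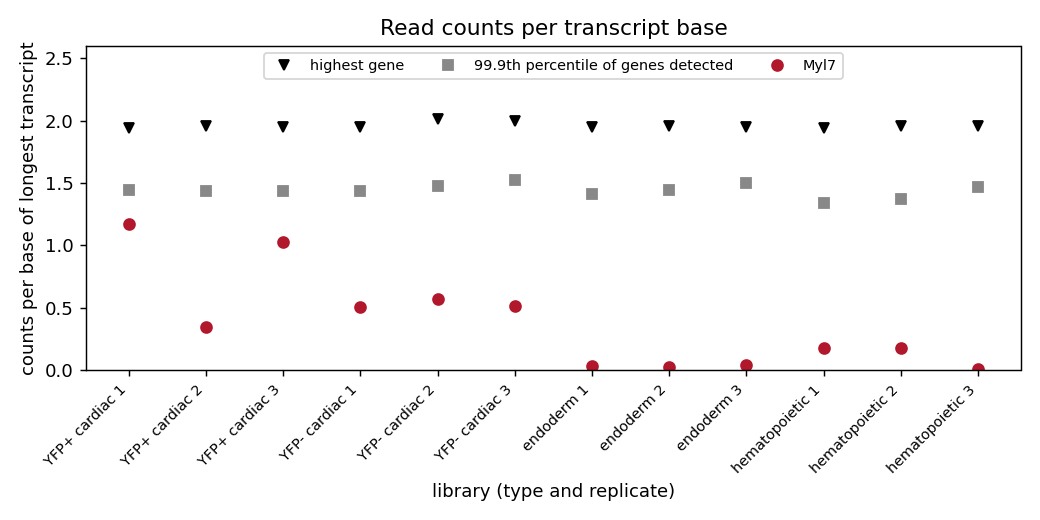
Read counts per base of the longest transcript (vertical axis) in each library (horizontal axis), for the highest gene, the 99.9th percentile of the genes detected, and Myl7. The highest gene lies near 2 in all 12 libraries, and Myl7 comes closest to it in YFP-positive libraries 1 and 3.

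Myl4 (ENSMUSG00000061086.6, chr11:104550663-104595753, plus strand) encodes the essential light chain of the atria. Its reads came almost wholly from YFP-negative cardiac library 1, with 52 counts, or 8.71 CPM. YFP-negative library 2 had 5 counts, library 3 had 0, endoderm had 0, 1 and 1, and the 6 YFP-positive and hematopoietic libraries had 0. The annotation places exons of another counted gene, Gm22000, on the opposite strand inside it, so reads of the 2 cannot be told apart if strand was not used.

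The myosin heavy chain genes lie side by side on chromosome 14. Myh6 (ENSMUSG00000040752.9, chr14:54941921-54966927, minus strand) encodes the fast alpha heavy chain of the heart, and Myh7 (ENSMUSG00000053093.9, chr14:54970684-54994626, minus strand) the slow beta chain that the fetal ventricle uses. Myh7 had 6, 15 and 31 counts in endoderm, or 2.19 CPM ± 1.38 (SD, n = 3), 1 count in YFP-negative library 2 and 0 in the other 8 libraries. Myh6 had 1, 0 and 26 counts in endoderm and 0 in the other 9 libraries. Neither heavy chain passed 3 counts in a cardiac library. Transcripts of the genes share much sequence with other myosins: 22.6% of the 50-base windows of Myh6 and 28.2% of those of Myh7 occur in another gene's transcripts, and Myh7 overlaps exons of Mhrt on the other strand. Their counts are uncertain to that extent.

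Endoderm library 3, which held most of the heavy chain reads, also had 212 counts of the cardiac factor Nkx2-5, against 138 and 7 in the other endoderm libraries and 4 to 54 in cardiac mesoderm. Hematopoietic library 1 had 205 counts of Nkx2-5, with 0 of Myh6 and Myh7. In endoderm library 3 the summed mesoderm markers were 370 CPM, between the 365 and 464 of the other endoderm libraries, with Hand1 at 309 counts against 72 and 28. A part of other cells in this result was not tested.

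Actc1 (ENSMUSG00000068614.7, chr2:114047282-114053548, minus strand) encodes cardiac alpha-actin, the main actin of the heart's thin filaments. Its counts were 0, 77 and 54 in YFP-positive cardiac mesoderm, 0, 8 and 57 in YFP-negative cardiac mesoderm and 24, 2 and 3 in endoderm. Hematopoietic mesoderm had 1, 0 and 655. The single library with 655 counts, at 138 CPM, held most of the Actc1 reads of the study (881 in all), and every type had both low and higher libraries. The levels were 8.01 CPM ± 7.22 (SD, n = 3), 3.13 ± 4.48, 1.48 ± 2.03 and 45.9 ± 79.3 in that order, and no difference among the types passed (edgeR adjusted p = 0.462, range over the alternatives 0.258 to 0.904). Without hematopoietic library 3 that type held Actc1 at 0.241 and 0 CPM, and the adjusted p was 0.464.

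Acta2 (ENSMUSG00000035783.8, chr19:34241090-34255590, minus strand) encodes smooth muscle alpha-actin, which early cardiomyocytes are also known to make. It had 3 and 6 counts in endoderm libraries 2 and 3 and 0 in the other 10 libraries. Neither cardiac fraction gave a read of it.

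Tnnt2 (ENSMUSG00000026414.7, chr1:135836354-135852260, plus strand) encodes cardiac troponin T, which ties the troponin complex to tropomyosin and is a standard marker of cardiomyocytes. It was read in all 3 YFP-negative cardiac libraries, with 52, 39 and 24 counts, and in no YFP-positive one (0, 0 and 0). Endoderm had 9, 0 and 4 counts, and hematopoietic mesoderm 0, 1 and 85. The YFP-negative mean of 5.89 CPM ± 2.64 (SD, n = 3) was 10.2-fold the floor of 3 counts per YFP-positive library (0.575 CPM on average). This ratio leaves out the spread between libraries. Across all genes the difference between the fractions did not pass (edgeR adjusted p = 0.626, range over the alternatives 0.193 to 0.858), although Tnnt2 was the 1 member at an unadjusted p under 0.05. DESeq2 and limma voom each called 0 members in this comparison.

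That pattern can be set against the other genes tested. In 1173 of 14170 genes (8.28%) every YFP-positive library was under every YFP-negative one. In 3 (0.0212%) all YFP-positive libraries were at 0 and each YFP-negative library had at least 20 counts, limits set after the Tnnt2 counts were seen, so the share describes the pattern and supports nothing. Besides Tnnt2 these were Fbxo41 (58, 93 and 148 counts in the YFP-negative libraries) and Dand5 (62, 41 and 27), a secreted Nodal antagonist known for left-right patterning, both named after their values were seen.

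Tnnt2 was 3.18 ± 2.10 higher on the log2 scale in YFP-negative cardiac mesoderm than in endoderm, which did not pass (edgeR adjusted p = 0.809). Only limma voom called it, at an adjusted p of 0.0331, the lowest of a range that reached 1. In this comparison limma voom called 12.8% of all genes. A test of any difference among the 4 types gave an adjusted p of 0.224 (range over the alternatives 0.0897 to 0.375), and the lowest of that range was the value without hematopoietic library 3, which left the type at 0 and 1 counts.

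Tnni1 (ENSMUSG00000026418.10, chr1:135779434-135810989, plus strand) encodes slow skeletal troponin I, the inhibitory subunit that embryonic hearts use first. YFP-positive library 2 had 125 counts, or 22.8 CPM, while libraries 1 and 3 had 12 and 0. YFP-negative libraries had 15, 0 and 0 counts, endoderm 3, 0 and 4, and hematopoietic mesoderm 0, 0 and 0. The cardiac fractions together were above the other types at an unadjusted p under 0.05 but not after adjustment (edgeR adjusted p = 0.227, range over the alternatives 0.185 to 1). A test of any difference gave 0.225.

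Tnnc1 (ENSMUSG00000091898.2, chr14:31208312-31211729, plus strand), which completes the troponin complex as its calcium sensor, had 3 counts in endoderm library 2 and 0 elsewhere. No library therefore had more than 3 counts of this subunit, and no cardiac library had reads of all 3 troponin members.

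Ttn (ENSMUSG00000051747.8, chr2:76703980-76982547, minus strand) was read in every library, from 49 to 494 counts. YFP-positive cardiac mesoderm had 262, 53 and 494 counts, YFP-negative cardiac mesoderm 323, 480 and 143, endoderm 231, 137 and 182, and hematopoietic mesoderm 49, 348 and 117. In CPM the highest and the lowest library, at 91.4 and 9.66, were both YFP-positive, and each type overlapped every other. The levels were 51.9 CPM ± 40.9 (SD, n = 3), 47.4 ± 24.0, 25.4 ± 10.04 and 32.2 ± 25.1, in that order, or 0.444, 0.405, 0.217 and 0.276 CPM per kilobase.

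No difference in Ttn passed the test. The cardiac fractions were above the other types by 0.79 ± 0.58 on the log2 scale (edgeR adjusted p = 0.589, range over the alternatives 0.308 to 0.827), and any difference among the types gave 0.824 (0.481 to 0.962). Of any difference among the 4 types, Myl7 was the 1 member called (adjusted p = 0.0218), where 6.03% of all genes were called. That call was lost without YFP-positive library 1 (0.0579) or 3 (0.0511) and without each endoderm library (0.0929, 0.0976 and 0.0956), within a range of 3.14e-06 to 0.0976. Reads of Ttn may include Gm13938, a gene annotated across some of its exons on the opposite strand.

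Single libraries carried several of these values. Of the 8922 genes that reached 100 counts in a hematopoietic library, 1335 (15.0%) had 3 or fewer in another library of the type, and Actc1 was the 1 member among them. In YFP-positive cardiac mesoderm this held for 860 of 9248 genes (9.30%), Tnni1 being the 1 member. It held for 330 of 9471 genes (3.48%) in YFP-negative cardiac mesoderm and 51 of 9838 (0.518%) in endoderm, with no member in either. A gene that is high in 1 library and absent from the next was thus common in the hematopoietic and YFP-positive sets.

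The library with the Actc1 peak, hematopoietic library 3, also had the most Tnnt2 of all (85 counts) and the least Myl7 (6 counts). Genes of early mesoderm were higher in it than in the other two: Hand1 had 1985 counts against 197 and 470, Tbx20 2467 against 1090 and 1187, Snai1 223 against 0 and 1, and Mixl1 1727 against 211 and 161. Other genes of cardiac mesoderm were not: Mesp1 had 0 counts, Tbx5 0 and Hand2 2, where the cardiac libraries had 55 to 329 of Mesp1 and 174 to 262 of Hand2. For Tbx5, YFP-negative cardiac library 1 also had 0 counts, and the other cardiac libraries had 35 to 469. Its summed hematopoietic and endothelial markers, at 1169 CPM, exceeded the 49.7 to 386 CPM of the cardiac libraries, with 7 of 12 over 3 counts. The part of other cell types in the Actc1 and Tnnt2 counts of that library was not tested.

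**Figure D4:**
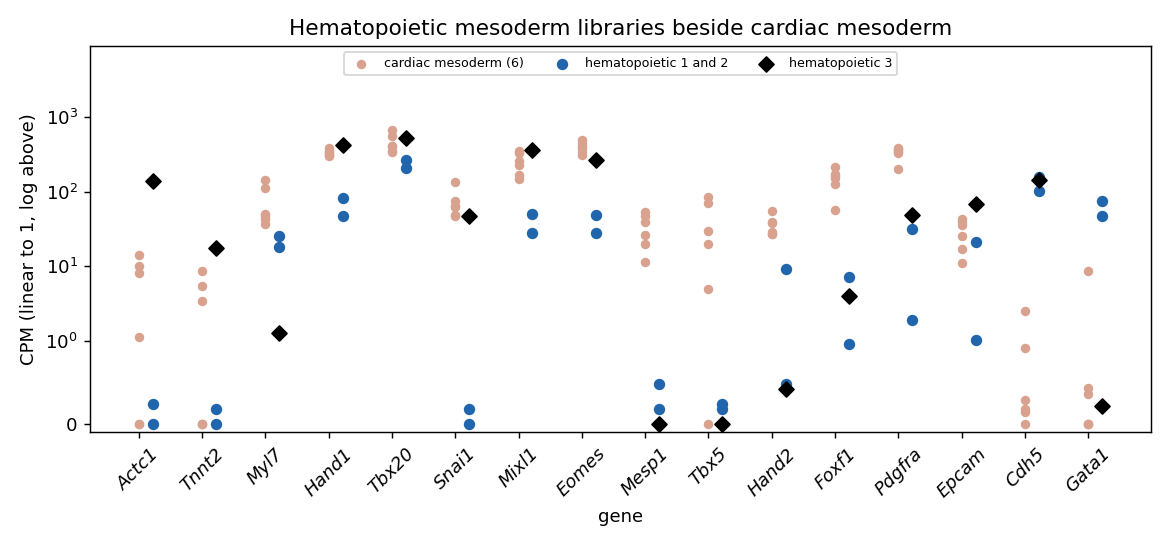
TMM-scaled CPM (vertical axis, linear up to 1 and logarithmic above) of 3 sarcomere genes and 13 marker and regulator genes in the 6 cardiac libraries, hematopoietic libraries 1 and 2, and hematopoietic library 3. Library 3 is the highest point for Actc1 and Tnnt2 and lies at 0 for Mesp1 and Tbx5, among the cardiac libraries for Tbx20, and above all 6 of them for Hand1 and Mixl1. For Tbx5 a YFP-negative cardiac library also lies at 0.

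Of 7 skeletal muscle genes on the list, Myod1, Myf5, Myf6, Myog and Ckm, which define that lineage or its differentiated state, were at 0 in all 12 libraries. Pax7 and Pax3, which precursors of several lineages express, were read. Pax7 had 102 to 138 counts in endoderm, 60 and 3 in YFP-positive libraries 1 and 2 and 62 in hematopoietic library 2. Pax3 had 26 and 1 in YFP-positive libraries 2 and 3 and 15 in endoderm library 1.

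The other sarcomere genes on the list, 50 in all, were as sparse as the members. Between 8 and 22 of them had over 3 counts in a library, with 13 to 16 in cardiac mesoderm, 15 to 22 in endoderm and 8 to 14 in hematopoietic mesoderm. Those with the most reads, not corrected for length, were Tpm1, a tropomyosin, at 378 CPM, Pdlim5, a Z-disc linker, at 191, and Neb, the giant thin filament protein nebulin, at 70.8. At 0 in all 12 libraries were 11 genes of the mature sarcomere and its Z-disc: Mybpc1, Mybpc3, Myh2, Tcap, Csrp3, Myoz2, Mypn, Myot, Xirp1, Xirp2 and Trim55. Of the 17 that could be tested, edgeR called 0 in each of the 7 contrasts and in the test of any difference. For cardiac against other types, 3 (Actn3, Pdlim5 and Tnni3) were at an unadjusted p under 0.05 by edgeR. DESeq2 called the same 3, where it called 7.45% of all genes, and limma voom called 0. By mean level Actn3 and Pdlim5 were higher in both cardiac fractions than in the other types. Tnni3 lay the other way, at 0 CPM in YFP-positive, 2.34 in YFP-negative, 11.1 in endoderm and 6.02 in hematopoietic libraries. The median difference of the 17 genes was 1.03 on the log2 scale against 0.02 over all genes.

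Of 16 genes of calcium handling, conduction and cardiac products, 9 were tested. Among these, Cacna1c, the pore of the L-type calcium channel of the heart, was the only one called by edgeR. It had 114, 511 and 91 counts in YFP-positive and 192, 141 and 149 in YFP-negative cardiac mesoderm. Endoderm had 2, 3 and 1, and hematopoietic mesoderm 0, 0 and 6. The cardiac fractions were above the other types by 6.53 ± 1.04 on the log2 scale (edgeR adjusted p = 0.00616), where edgeR called 2.11% of all genes. In that comparison DESeq2 called 3 of the list (Ryr2, Cacna1c and Slc8a1), against 7.45% of all genes. Limma voom called 3 (Gja1, Cacna1c and Slc8a1), against 2.75%. Cacna1c did not overlap between cardiac and other libraries, and the share of all genes with such a separation was not counted. Like Myl7 it passed in YFP-positive cells against endoderm (by 7.2 ± 1.5 on the log2 scale, edgeR adjusted p = 0.0315), where 1.54% of all genes were called. It also passed in them against hematopoietic mesoderm (6.67 ± 1.49, adjusted p = 0.0453), where 1.79% were called. Without hematopoietic library 3, the only one of its type with reads, the adjusted p was 0.00862 in the last comparison and 0.000947 for cardiac against other types. The natriuretic peptide gene Nppb and the calcium pump regulator Sln were at 0 in all libraries. Not corrected for length, the most reads on this list were those of Atp2a2, Gja1 and Srl, at 617, 218 and 32.7 CPM.

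Regulators of cardiac and muscle genes were read far more widely than the sarcomere genes. All 20 on the list were tested, and 18 to 20 had over 3 counts in each cardiac library, 13 to 18 in endoderm and 11 to 13 in hematopoietic mesoderm. In cardiac mesoderm against the other types 8 were higher and 0 lower: Tbx5 (7.05 on the log2 scale), Mesp1 (5.64), Mef2c (5.32), Hand2 (4.60), Hand1 (2.57), Tbx20 (1.84), Gata4 (1.14) and Tead1 (0.51). These encode factors of the T-box, bHLH, MADS-box, GATA and TEAD families, and most are known to act on heart genes. Of all genes, 1.35% were called as higher in this comparison and 2.11% in either direction. The list was chosen with earlier results of these data known. Without each library in turn the number of regulators called was 3 to 10, with the lowest values without endoderm library 2 or 3. Mesp1, an early marker of cardiac-fated mesoderm, and Tbx20 were called in each of the 18 alternative fits.

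By comparison, 5 regulators passed as higher in YFP-positive cells than in endoderm (Gata4, Tbx20, Hand1, Hand2 and Tead1) and 3 in YFP-negative cells (Tbx20, Hand1 and Tead1). Against hematopoietic mesoderm 2 passed in YFP-positive cells (Tbx5 and Mesp1) and 1 in YFP-negative cells (Mesp1). In endoderm 3 were lower than in hematopoietic mesoderm (Tbx20, Hand1 and Tead1). Of all genes, edgeR called 1.54%, 1.31%, 1.79%, 0.593% and 5.65% in these 5 comparisons, in that order and in either direction. Without hematopoietic library 3 the last 3 comparisons gave 5, 2 and 3 regulators, against 2.79%, 1.43% and 4.28% of all genes. In the same order the 5 comparisons gave 9, 9, 8, 6 and 4 regulators by DESeq2, against 6.51%, 4.27%, 10.6%, 7.63% and 13.4% of all genes. Limma voom gave 10, 11, 0, 0 and 3, against 7.97%, 12.8%, 0.127%, 0.67% and 8.65%. The number of regulators called thus depended on the tool, as did the number of all genes called. Between the cardiac fractions edgeR called 0 regulators, with 0 at an unadjusted p under 0.05, and DESeq2 and limma voom called 0. Not corrected for length, the regulators with the most reads were Tead1 at 745 CPM, Tbx20 at 322 and Gata4 at 229.

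Srf encodes serum response factor, the CArG-binding protein, and was read in every library, from 45.8 to 176 CPM. Myocd encodes myocardin, its partner in heart and smooth muscle. Myocd had 150, 119 and 0 counts in YFP-positive cardiac mesoderm, 10, 250 and 6 in YFP-negative cardiac mesoderm and 24, 12 and 75 in endoderm. All 3 hematopoietic libraries, the one with 655 counts of Actc1 included, had 0. Neither gene was called by edgeR in any of the comparisons, while DESeq2 called Myocd in each comparison with hematopoietic mesoderm, in cardiac against other types and in any difference.

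Actin and myosin genes of other cells were present throughout. All 16 of the non-muscle list were tested and 15 or 16 were read in each library, with the highest CPM, a value that also grows with transcript length, for Myh10 (508), Myh9 (484) and Actb (461). Actn1, a non-muscle alpha-actinin, was lower in YFP-positive cardiac than in hematopoietic mesoderm (-0.88 on the log2 scale, edgeR adjusted p = 0.0481). In endoderm Actn1 (-0.84), Pfn1 (-0.83) and Actb (-0.56) were lower than in hematopoietic mesoderm. Without hematopoietic library 3 the calls of Actn1 (adjusted p = 0.0378, and 0.0351 for endoderm) and Pfn1 (0.0278) held and that of Actb was lost (0.0742). Raw Actb counts were alike in both types, 2623, 2780 and 2752 in endoderm and 2485, 2666 and 2678 in hematopoietic mesoderm. The lower Actb level in endoderm appeared only after scaling. Raw Pfn1 counts were 1156, 1211 and 1344 in endoderm and 1371, 1498 and 1430 in hematopoietic mesoderm. Over all libraries raw counts differed by 1.13-fold for Actb and 1.36-fold for Pfn1, against 1.76-fold for the totals. Whether the like maximum of counts per base shapes these differences was not tested. Reads of Actb are also uncertain, since 14.2% of the 50-base windows of its transcript occur in other genes. Of 11 smooth muscle genes, 8 were tested and edgeR called 0 in every comparison, with 0 to 3 at an unadjusted p under 0.05 and 0 by DESeq2 and limma voom. Cald1, Smtn and Des had the most reads among them, at 399, 21.4 and 9.55 CPM, again not corrected for length.

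**Figure D5:**
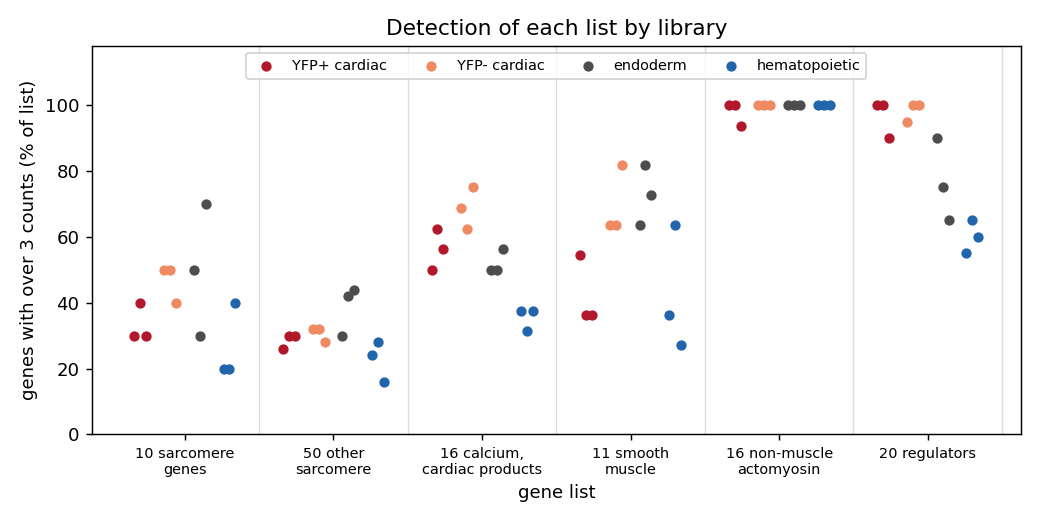
Share of each gene list with over 3 counts (vertical axis, in %) in each library (points, coloured by type). The sarcomere lists lie at 70% or below in every library, while the non-muscle list lies near 100% and the regulators are highest in the cardiac libraries.

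The genes whose levels moved most like Myl7 and Ttn over the 12 libraries were found by Pearson's r of log2 CPM, which is a description, since the libraries share types and depth. For Myl7 they included Plxna4 (r = 0.913), a semaphorin receptor, and Itpr1 (0.908), a calcium release channel. Plxna4 averaged 137 and 135 CPM in the cardiac fractions, 17.1 in endoderm and 31.2 in hematopoietic mesoderm. For Ttn they were Casc3 (0.908), Alg6 (0.864) and Wasl (0.852). The mean level of Wasl lay between 183 and 199 CPM in all 4 types.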

How the data were processed

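RNA was measured in 12 libraries, 3 of each of 4 sorted types. The deposited values are raw read counts per gene as the authors left them, with no normalization. Per the submitters' processing notes, STAR 2.5.0a, Picard, HTSeq 0.6.0, DESeq2 and build mm10 were used; their settings, the annotation release and the use of strand are not given in the sources used here. Genes took 18.3% to 21.5% of the reads tallied, and the summary lines (no feature, ambiguous, not unique) were kept out of library sizes. Symbols were matched for 37607 of 38924 genes. Counts were tested with edgeR 4.0.16 (R 4.3.3): filterByExpr, TMM scaling and a quasi-likelihood fit over all 12 libraries with 8 residual degrees of freedom, with Benjamini-Hochberg adjustment over 14170 genes and a threshold of 0.05. Alternatives were DESeq2 1.42.0, limma 3.58.1 (voom with quality weights), RLE scaling, testing every gene with reads, a mean CPM of 5 or more, a block for the replicate number, fits of only the types compared, and each library left out. Scripts were tested on simulated data. All 10 members are named; of other lists the text names genes called and the 3 with the highest mean CPM, and for members with 10 counts in 6 libraries the 3 genes most alike, of which 1 for Myl7 is not reported here. The members and lists were chosen with earlier results of these data known. Coordinates are from GENCODE M21 (GRCm38).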

Additional observations from a re-analysis of the deposited data

How the results depend on the processing

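Counts of sarcomere genes called depended on single libraries. Leaving out each library gave 0 to 1 for YFP-positive cardiac mesoderm against endoderm, 0 to 0 for YFP-negative against endoderm, 0 to 1 for endoderm against hematopoietic mesoderm, 0 to 1 for cardiac against other types and 0 to 1 for any difference. For YFP-negative against endoderm RLE scaling gave 0 and limma voom 2. DESeq2 gave 2 for YFP-positive against hematopoietic mesoderm and 1 for endoderm against hematopoietic mesoderm. With the replicate number as a block, YFP-negative against endoderm gave 0 and no other count of members changed. The labels do not say that the numbers pair the libraries. The deposited files carry a date that same-numbered libraries share and that differs between numbers, with no statement of what it marks. To look for pairing, each gene's type mean was taken from its log2 CPM, and these deviations were correlated between libraries of different types. Same-numbered libraries correlated by 0.0139 on average over 18 pairs (-0.0177 to 0.0319), against -0.00694 over 36 others. By these deviations 10 of 12 libraries correlated best, on average, with their own number. The values do not describe how alike the levels of the libraries are. Myl7 kept its sign in every alternative, while for Actc1, Tnni1, Tnnt2 and Ttn 30 of 359 alternative fold changes had the opposite sign, none of them called. Over all genes, the numbers called by edgeR, edgeR with the block, DESeq2 and limma voom were 0, 0, 115 and 0 between the cardiac fractions, 218, 178, 922 and 1130 for YFP-positive against endoderm, 185, 143, 605 and 1812 for YFP-negative against endoderm, 253, 133, 1505 and 18 for YFP-positive against hematopoietic mesoderm, 84, 31, 1081 and 95 for YFP-negative against hematopoietic mesoderm, 800, 545, 1903 and 1225 for endoderm against hematopoietic mesoderm, 299, 191, 1056 and 390 for cardiac against other types, and 854, 467, 1928 and 1097 for any difference. Leaving out each library gave 0 to 1, 71 to 159, 69 to 100, 106 to 426, 16 to 247, 180 to 976, 117 to 532 and 212 to 991 in the same order, so the shares of all genes set beside the members' counts move as much. With only the 2 types in the fit the pairwise numbers were 0, 1063, 1360, 13, 10 and 1258. The causes were not tested. Depth limits members with 3 or fewer counts, for which differences were not detectable.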
